A study of Mus musculus with 9 samples.

Results

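The 10 genes described here encode the core and scaffold of the elastic fibre. They were taken by symbol from the 30579 genes of an FPKM table of mouse bone marrow mesenchymal stromal cells. The members were Eln, Fbn1, Fbn2, Mfap2, Mfap4, Fbln5, Efemp2, Fbln1, Fbln2 and Emilin1, and all 10 had a row. FPKM is the number of fragments per kilobase of transcript, scaled to the library's total, so levels of different genes can be compared. Cells were sorted from long bones of mice that had received an intravital antibody against the endothelial protein VE-cadherin. The 9 libraries formed 3 groups of 3, young controls of 3 months, aged controls of 18 months, and aged Thbs1 knockout mice of 18 months. Allele and strain are not stated for any group used here beyond these names, nor is it stated that each library came from its own mouse. P-values therefore measure the spread between these libraries, which may be technical.

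Elastic fibres give tissue its recoil. Their core is tropoelastin, the product of Eln, which lysyl oxidases crosslink onto a scaffold of microfibrils built from fibrillins. Short fibulins carry tropoelastin and lysyl oxidase to that scaffold, and the scaffold also stores latent TGF-beta, which thrombospondin-1, the product of Thbs1, can activate. Marrow itself is poor in mature elastic fibres, and its stromal cells sit among sinusoids, arterioles and bone surfaces.

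Several facts of the libraries bear on the values. Thbs1 was at 24.28, 44.55 and 37.05 FPKM in the libraries labelled knockout and at 35.56, 41.89 and 36.85 FPKM in aged controls, a log2 fold change of −0.15 (SE 0.26, limma adjusted p = 0.801). The RNA thus did not separate these groups, and the former are called the labelled-knockout libraries. Their second library stood apart, with correlations to the other libraries of 0.738 to 0.811 and only 13503 genes above 0, the lowest number of the 9. An estimated 4.27% to 31.9% of reads came from immunoglobulin genes in aged controls, 0.163% to 19.2% in labelled-knockout libraries and at most 0.171% in young controls. The 12 stromal identity markers had mean log2 levels of 7.30 to 7.41 in young controls, 6.16 to 6.79 in aged controls and 6.72 to 7.04 in labelled-knockout libraries, and none was at 0. Of 10 endothelial markers, 1 passed the filter on low values, Pecam1, and it did so through the aged controls alone. Pecam1 was at 9.34, 11.58 and 2.07 FPKM there, 0.05 to 0.09 FPKM in young controls and 0.02 to 0.42 FPKM in labelled-knockout libraries. Cdh5, which encodes VE-cadherin, was at 0.01 to 0.11 FPKM in 8 libraries and at 1.99 FPKM in the second labelled-knockout library. The estimated depth was 17900000 to 27350000 reads a library. In bulk libraries fewer cells of a type and less RNA per cell cannot be told apart.

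Promoter sequences are shown for 3 members on which the results turn. Mfap2 was the member past the test in both comparisons with aged controls, and Fbln5 and Fbn1 had the least variable ratio of those named below, from 5.69 to 7.67. Each window runs from 250 bases before to 50 bases after a transcript start of RefSeq on GRCm38.p6, 5′ to 3′ on the gene's strand, and where RefSeq gave several starts the first listed is shown. They lie at chr4:141010431-141010730 (forward strand), chr12:101819070-101819369 (reverse strand) and chr2:125506389-125506688 (reverse strand). Capitals mark GGGCGG, the core of the GC box, on either strand.
Mfap2: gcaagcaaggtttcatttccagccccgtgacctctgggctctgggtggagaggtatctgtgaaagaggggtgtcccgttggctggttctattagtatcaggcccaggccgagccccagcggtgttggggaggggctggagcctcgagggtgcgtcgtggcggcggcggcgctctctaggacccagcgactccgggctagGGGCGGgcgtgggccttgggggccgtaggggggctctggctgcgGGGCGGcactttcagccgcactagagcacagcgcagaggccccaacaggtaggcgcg
Fbln5: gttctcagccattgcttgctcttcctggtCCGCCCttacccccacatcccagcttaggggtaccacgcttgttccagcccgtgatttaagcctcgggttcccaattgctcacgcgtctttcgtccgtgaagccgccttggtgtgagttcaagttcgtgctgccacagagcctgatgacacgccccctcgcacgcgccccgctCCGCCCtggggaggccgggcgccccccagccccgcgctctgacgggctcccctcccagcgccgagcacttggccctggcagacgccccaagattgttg
Fbn1: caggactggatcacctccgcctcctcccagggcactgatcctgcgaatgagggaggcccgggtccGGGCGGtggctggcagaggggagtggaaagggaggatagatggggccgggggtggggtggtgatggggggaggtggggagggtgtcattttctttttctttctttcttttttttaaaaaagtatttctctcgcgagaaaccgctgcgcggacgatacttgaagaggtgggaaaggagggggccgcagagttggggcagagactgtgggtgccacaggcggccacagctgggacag

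A window was given for 7 of the 10 members. GGGCGG was in the first window of 5 of these 7 (Fbn1, Mfap2, Fbln2, Fbln5 and Efemp2) and in 35.9% of the first windows of all 27025 genes. TATAAA, the core of the TATA box, was in none of the 7 and in 14.2% of all first windows. The letters TGANTCA, the AP-1 motif, were in none of the 7 and in 7.93% of all, and CCAAT was in 2 of 7 (Emilin1 and Fbln5) and in 37.9% of all. All motifs were sought on both strands. The printed windows held 68.0% (Mfap2), 65.7% (Fbln5) and 60.3% (Fbn1) G and C bases, against a median of 52.7% over all first windows. These values depend on the start listed first. The other windows of Mfap2 and Fbln5 held 52.0% and 48.7% G and C bases and no GGGCGG, and the other window of Fbln1 held 2 matches to it. A match describes letters and is not evidence of a bound factor.

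The stromal cells transcribed the scaffold of the elastic fibre strongly and its core hardly at all. In young controls the short fibulin Fbln5 led, at 395.13, 392.34 and 316.11 FPKM (mean 368 ± 44.8, SD, n = 3), above 99.2% of tested genes. Efemp2, which encodes fibulin-4, followed at 115.63, 114.89 and 109.75 FPKM. Mfap2, whose product MAGP1 binds fibrillin, Fbln1, a large fibulin, and Fbn1, the main fibrillin, averaged 78.5 ± 10.5, 74.0 ± 5.82 and 59.7 ± 12.8 FPKM (SD, n = 3 each). The ranges of neighbours in this trio overlapped, as did those of Fbn1 and Emilin1, a glycoprotein of the elastin-microfibril interface, at 39.5 ± 16.9 FPKM. A gap then divided these 6 genes from 4 low ones. Fbn2, the second fibrillin, averaged 2.03 ± 0.159 FPKM, Mfap4 1.68 ± 0.133, Fbln2 1.03 ± 0.658 and Eln 0.583 ± 0.0702 (SD, n = 3 each).

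**Figure D1:**
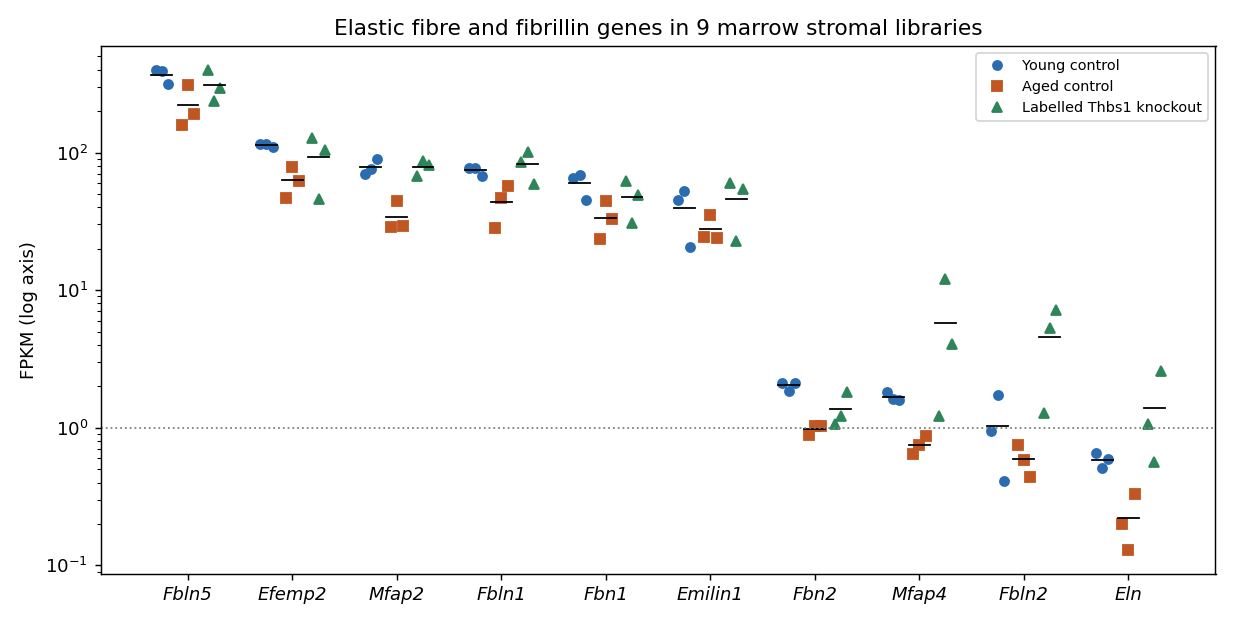
FPKM on a log axis of the 10 members in every library, with 3 points per group and a black line at the group mean; the dotted line marks 1 FPKM. The 6 abundant genes lie above 20 FPKM in every library, while Eln, Fbln2, Mfap4 and Fbn2 lie at or below 2.13 FPKM in all controls.

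The same 6 genes were the most abundant in aged controls and in labelled-knockout libraries, with Fbln5 first in each. Fbn1 was at 19.2 to 341 times the level of Eln over the 9 libraries, with a median of 98.9. For Fbn1 over Fbn2 the ratio was 21.3 to 58.6. At the estimated depth, and if the authors' length for Eln is its merged exon length of 8098 bases, its values stand for about 29 to 450 reads, so that Eln was detected in every library. On the same assumption Fbln2 had 51 to 982 reads and Mfap4 32 to 423.

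Members that passed a minimum of 1 FPKM in at least 3 libraries were tested, which left 9 of 10. Eln reached 1 FPKM in 2 libraries and was not tested. Fbln2 reached it in 4 libraries, all 3 labelled-knockout libraries among them, and so entered the test largely through the group where it was high. Mfap4 reached it in 6 and Fbn2 in 8 libraries. Tests were made with limma on log2(FPKM + 1) over all 11988 genes that passed, with Benjamini-Hochberg adjustment and a threshold of 0.05. Fold changes are on that scale, which understates those of low genes.

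Aged against young controls asks what differs in marrow stroma with age. All 10 members had a lower mean in aged controls, and 1 of the 9 tested, Mfap2, passed the test. Over all genes tested, 1.47% passed as lower. Mfap2 was at 69.84, 75.54 and 90.13 FPKM in young and 28.76, 44.15 and 29.42 FPKM in aged controls. Every aged library lay below every young library, and the mean fell from 78.5 ± 10.5 to 34.1 ± 8.70 FPKM (SD, n = 3), a log2 fold change of −1.20 (SE 0.24, 95% interval −1.74 to −0.66, limma adjusted p = 0.0314). The call ended with median-ratio rescaling (−0.86, adjusted p = 0.109) and with scaling to the stromal markers (−0.34, adjusted p = 0.349). It passed in 3 of 9 fits without 1 library and was lost without any young control library, without aged control library 1 or 3 and without labelled-knockout library 3, with adjusted p = 0.0504 to 0.228 in these 6 fits.

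The other abundant members shared the direction without passing. Fbn1 was at 65.13, 68.93 and 45.15 FPKM in young and 23.48, 44.32 and 32.63 FPKM in aged controls. The groups did not overlap, although young control library 3 and aged control library 2 nearly touched, and the log2 fold change was −0.84 (SE 0.33, limma adjusted p = 0.186). Fbln5 was at 159.36, 312.09 and 189.57 FPKM in aged controls, below the young controls by −0.79 (SE 0.31, limma adjusted p = 0.187). Efemp2, without which mice form no normal elastic fibres, was at 46.74, 79.15 and 62.62 FPKM in aged controls and lay at −0.87 (SE 0.37, limma adjusted p = 0.211). Fbln1, at 77.32, 77.47 and 67.32 FPKM in young and 28.41, 46.54 and 57.09 FPKM in aged controls, lay at −0.79 (SE 0.30, limma adjusted p = 0.172). Emilin1 was at 45.36, 52.65 and 20.44 FPKM in young and 24.33, 35.32 and 23.75 FPKM in aged controls. Its groups overlapped through young control library 3, with −0.41 (SE 0.44, limma adjusted p = 0.625).

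Among the low members, Fbn2 was at 2.13, 1.85 and 2.12 FPKM in young and 0.89, 1.03 and 1.03 FPKM in aged controls, with −0.61 (SE 0.20, limma adjusted p = 0.125). Mfap4, a fibrinogen-domain protein of microfibrils, was at 1.83, 1.61 and 1.59 against 0.64, 0.75 and 0.87 FPKM, with −0.61 (SE 0.52, limma adjusted p = 0.530). Eln was at 0.65, 0.51 and 0.59 FPKM in young and 0.20, 0.13 and 0.33 FPKM in aged controls, so the aged mean was 37.7% of the young one. Fbln2, at 0.95, 1.72 and 0.41 against 0.75, 0.58 and 0.44 FPKM, was the low member whose groups overlapped. In all, 8 of 10 members, or 7 of the 9 tested, lay below without overlap, where 37.4% of all tested genes did.

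The median tested gene lay at −0.28 with age and the median tested member at −0.79. Median-ratio rescaling brought all genes to −0.01 and the members to −0.45, with all 9 still negative and none passing. With immunoglobulin genes left out, and each library rescaled to the same total of the remaining genes, the values were −0.02 and −0.47. All 9 were again negative. Scaled to the 12 stromal markers the median member lay at 0.07 and the median gene at 0.59. Of 9 members 7 were positive, all but Mfap2 and Efemp2 (−0.01). The shift was made on log2(FPKM + 1), where fold changes of members near 1 FPKM are compressed. Such members took the full shift all the same. Mean FPKM of Fbn2 and Mfap4 in aged controls was 48.4% and 44.9% of that in young controls. Their turned signs are thus no evidence of a rise relative to the stromal markers. As deposited, the median stromal marker lay at −0.81, close to the median member. Of 9 tested pan-leukocyte markers 8 rose, where 308 of all 11988 genes tested did. The summed levels of these markers were 595 to 1792 FPKM in aged and 8.40 to 28.6 FPKM in young controls. Spi1, Cd37, Lcp1 and Laptm5 reached 1 FPKM in no young control and entered the test largely through the aged controls. Their calls are no independent support for a rise. Of 10 osteoblast markers 5 fell (median −1.81), where 1.47% of all genes tested did. The 10 markers summed to 1887 to 2969 FPKM in aged and 9254 to 12025 FPKM in young controls. Chondrocyte markers summed to 12.4 to 15.9 against 116 to 285 FPKM (0 of 9 tested passed, median −2.16) and smooth muscle and pericyte markers to 70.3 to 83.8 against 135 to 187 FPKM (1 of 9 tested, Mylk, fell). The part of such cells in the result was not tested. Without the second labelled-knockout library, which shares the estimate of spread, 4 members passed as lower (Fbn1, Fbn2, Mfap2 and Efemp2), as did 17.9% of all genes tested. A fit of only the 6 control libraries, which tested 8 members, called Fbn2, Mfap2, Mfap4 and Efemp2 and 1609 of all 11525 genes as lower. In that fit Mfap4 reached 1 FPKM in young controls alone and so entered through the group where it was high. Its call there is no independent support for a fall. Array weights called 8 of 9 members and 48.4% of all genes as lower.

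**Figure D2:**
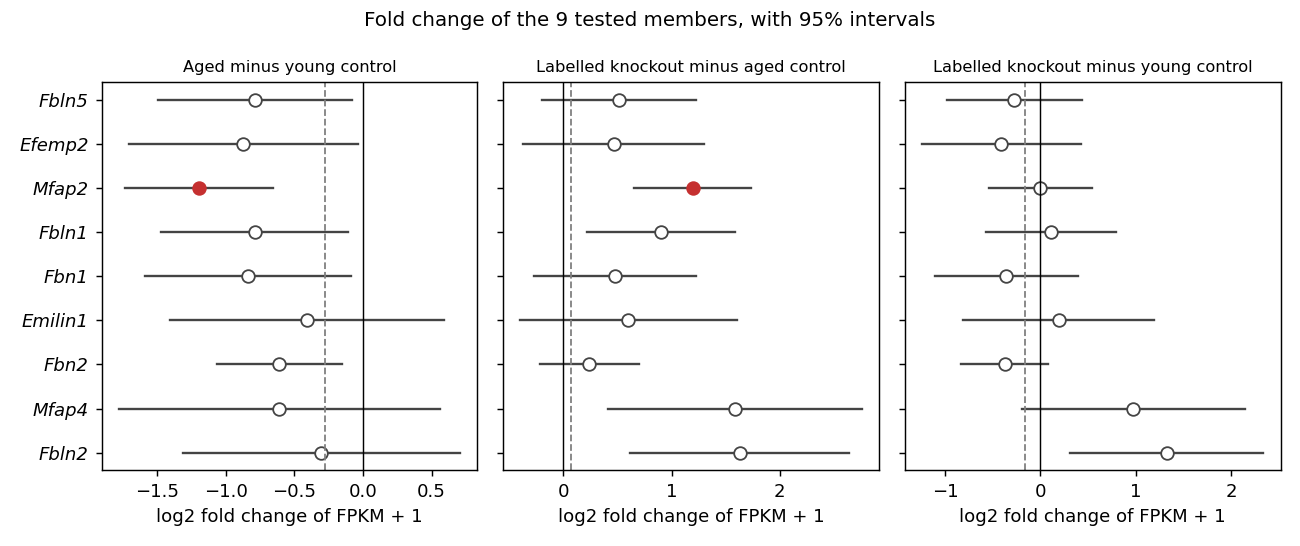
Log2 fold changes on log2(FPKM + 1) of the 9 tested members with 95% intervals, in 3 comparisons; filled red points passed an adjusted p of 0.05 and the dashed line marks the median of all tested genes. Mfap2 passed in the first comparison at −1.20 and in the second at 1.20, and no member passed in the third.

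The labelled-knockout libraries were next set against the aged controls, the comparison meant to show the effect of Thbs1 loss in old animals. All 10 members had a higher mean in the labelled-knockout libraries, and Mfap2 alone of the 9 tested passed. Over all genes tested, 1.52% passed as higher. This comparison shares the aged controls with the one above, so the opposite directions are not independent of each other. Mfap2 was at 67.22, 86.92 and 80.99 FPKM, above each aged control, and rose from 34.1 ± 8.70 to 78.4 ± 10.1 FPKM (SD, n = 3). The log2 fold change was 1.20 (SE 0.24, 95% interval 0.66 to 1.74, limma adjusted p = 0.0325). It passed with median-ratio rescaling (1.07, adjusted p = 0.0467) and after removal of immunoglobulin genes (0.98, adjusted p = 0.0309), and not with stromal marker scaling (0.74, adjusted p = 0.148) or in a fit of the 6 compared libraries (adjusted p = 0.137). It also passed without labelled-knockout library 2 (1.12, adjusted p = 0.0184), and did not in the other 8 fits without 1 library, at adjusted p = 0.0583 to 0.220.

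Mfap4 was at 1.21, 12.06 and 4.04 FPKM in the labelled-knockout libraries, and its mean was 7.66 times that of aged controls. Its log2 fold change of 1.59 (SE 0.52, limma adjusted p = 0.137) did not pass. Fbln2, a large fibulin of vessel walls and of mesenchyme, was at 1.29, 5.33 and 7.15 FPKM, with 1.63 (SE 0.45, limma adjusted p = 0.0889). Both genes were far higher in libraries 2 and 3 than in library 1. Both passed without library 1 (2.21, adjusted p = 0.0405, and 2.18, adjusted p = 0.0254), where 0.497% of all genes passed as higher. Fbln2 entered these tests largely through the labelled-knockout libraries, so its p-values are no independent support for a rise. Eln was at 1.06, 0.56 and 2.58 FPKM, above all aged controls. With no filter on low values, its difference was 0.89 (SE 0.28, limma adjusted p = 0.188).

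Markers of other cell types also differed in this comparison. Where 1.52% of all genes tested rose, Col15a1 and Igfbp6 did so of 14 fibroblast markers, and none of these markers fell. Without library 2 there were 2 rises and 1 fall among them, where 11.5% of all genes rose and 4.48% fell. Mean log2 levels of the fibroblast markers were 3.21, 4.72 and 4.69 in the labelled-knockout libraries and 3.22 to 3.52 in aged controls. They were higher in libraries 2 and 3, as for Mfap4 and Fbln2. Single markers of the list went both ways, as 4 genes named after their values were seen show. Dpt was at 1.44, 48.12 and 18.72 FPKM in labelled-knockout libraries and 0.13 to 2.15 FPKM in aged controls, and Clec3b at 1.23, 11.96 and 15.56 against 0.31 to 0.87 FPKM. Pi16 averaged 0.793 in labelled-knockout libraries against 6.51 FPKM in aged controls, and Ly6a 213 against 438 FPKM, and neither passed (limma adjusted p = 0.105 and 0.393).

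Over all genes tested, 1.52% rose from aged controls to labelled-knockout libraries. Of 9 tested smooth muscle and pericyte markers 3 rose (Tagln, Acta2 and Mcam). The whole list summed to 229, 170 and 380 FPKM in the labelled-knockout libraries and 70.3 to 83.8 FPKM in aged controls. Of 9 tested chondrocyte markers 7 rose, with summed levels of 1094, 149 and 2929 FPKM against 12.4 to 15.9 FPKM. Both sums were lowest in library 2, where Mfap4 was highest, and highest in library 3, where Fbln2 and Eln were highest. Of 10 osteoblast markers 4 rose, with sums of 6059, 2634 and 10411 FPKM against 1887 to 2969 FPKM. Of 9 tested pan-leukocyte markers 7 fell, with sums of 6.26, 614 and 108 FPKM against 595 to 1792 FPKM. With median-ratio rescaling 6 fell, where 2.82% of all genes tested did. Cd52 alone made up 544.91 of the 614 FPKM. Mean log2 levels of this list were 0.603, 2.86 and 2.12 against 4.13 to 6.39. Spi1, Cd37, Lcp1 and Laptm5 entered the test largely through the aged controls, so their falls are no independent support. The part of such cells in the levels of the members was not tested.

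Among the abundant members, Fbln1 came nearest to Mfap2. It was at 85.24, 101.64 and 59.12 FPKM in the labelled-knockout libraries, each above every aged control, with 0.90 (SE 0.30, limma adjusted p = 0.143). Fbn1 was at 62.13, 30.70 and 49.46 FPKM, Fbln5 at 398.44, 235.42 and 294.47 FPKM, Efemp2 at 127.20, 45.98 and 105.13 FPKM and Emilin1 at 60.16, 22.68 and 53.88 FPKM. In all 4 the second library was the lowest of its group and within or below the aged range. Their log2 fold changes were 0.46 to 0.60, with limma adjusted p from 0.400 to 0.530. Without that library Efemp2 passed (0.90, adjusted p = 0.0355) beside Mfap2, and 11.5% of all genes passed as higher. Fbn2, at 1.06, 1.21 and 1.81 FPKM, lay just above the aged controls, at 0.24 (SE 0.20, limma adjusted p = 0.557). Under stromal marker scaling Fbn2 turned to −0.22, subject to the limit for members near 1 FPKM given above. In all, 6 of 10 members, or 5 of the 9 tested, lay above without overlap, where 16.6% of all tested genes did. The median tested member lay at 0.60 and the median gene at 0.07, beside 0.52 for the 12 stromal markers. Relative to those markers the values were 0.14 for members and −0.39 for all genes. As deposited, without that scaling, leaving out labelled-knockout library 2 gave 0.90 for members and 0.25 for all genes.

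**Figure D3:**
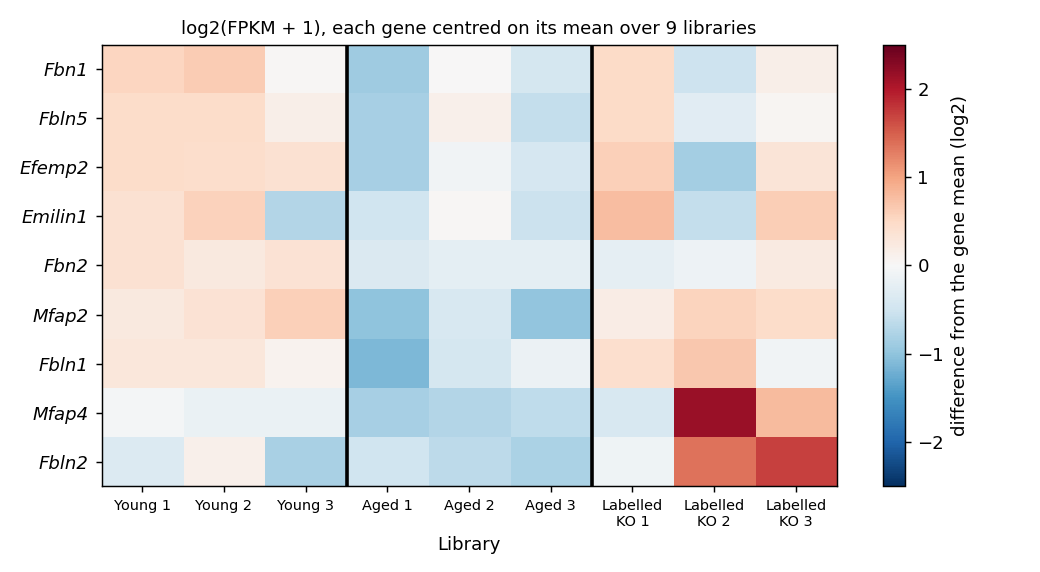
Each tested member's log2(FPKM + 1) in every library, as the difference from its mean over the 9 libraries (red above, blue below). Aged libraries 1 and 3 are blue throughout; labelled-knockout library 2 is blue for Fbn1, Fbn2, Fbln5, Efemp2 and Emilin1 and red for Mfap2, Fbln1, Mfap4 and Fbln2.

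Labelled-knockout libraries against young controls showed no member past the test, 4 of 9 with a positive and 5 with a negative fold change. Over all genes tested, 0.025% passed. At an unadjusted p under 0.05 there was 1 member, Fbln2 (1.33, SE 0.45, limma adjusted p = 0.473), and 8.63% of all genes. Fbln2 entered the test largely through the labelled-knockout libraries. Mfap2 averaged 78.5 ± 10.5 in young and 78.4 ± 10.1 FPKM in labelled-knockout libraries, a log2 fold change of 0.00 (95% interval −0.54 to 0.54, limma adjusted p = 0.997). The interval leaves room for a difference of up to 0.54 either way. Fbn2 was the member that lay below the young controls in all 3 labelled-knockout libraries, at 66.9% of their mean (−0.37, SE 0.20, limma adjusted p = 0.616). For 13.4% of all tested genes the same held. Stromal marker scaling turned the sign of Fbn2 (0.03), with the same limit for members near 1 FPKM.

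Ratios between members of a library do not depend on how that library is scaled. A set of 12 ratios, chosen after values were seen, was compared in the 3 comparisons by exact two-sided permutation tests, which with 3 against 3 libraries cannot go below p = 0.1. Fbln5 to Fbn1 was 5.69 to 7.67 in all 9 libraries, while Fbn1 itself ranged 2.94-fold. Efemp2 to Fbn1 was 1.50 to 2.43. The exact permutation p for both ratios was 0.6 or more in each comparison, and the groups overlapped throughout.

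The ratio of Mfap2 to Fbn1 was 1.07, 1.10 and 2.00 in young controls, 1.22, 0.996 and 0.902 in aged controls and 1.08, 2.83 and 1.64 in labelled-knockout libraries. The groups overlapped in every comparison. The log2 difference of this ratio was −0.36 with age (exact permutation p = 0.4, adjusted p = 0.9 over 36 tests) and 0.73 for labelled-knockout libraries against aged controls (exact permutation p = 0.2, adjusted p = 0.655). Fbln1 to Fbn1 was 1.05 to 1.75 in 8 libraries and 3.31 in labelled-knockout library 2.

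Eln to Fbn1 was 0.00998, 0.00740 and 0.0131 in young controls, 0.00852, 0.00293 and 0.0101 in aged controls and 0.0171, 0.0182 and 0.0522 in labelled-knockout libraries. Each labelled-knockout library lay above every control. The log2 difference was 2.00 against aged and 1.36 against young controls, at the smallest p the test can give (exact permutation p = 0.1, adjusted p = 0.655). Without single libraries the difference against aged controls was 1.45 to 2.34, and against young controls 0.84 to 1.64, the lowest without labelled-knockout library 3.

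**Figure D4:**
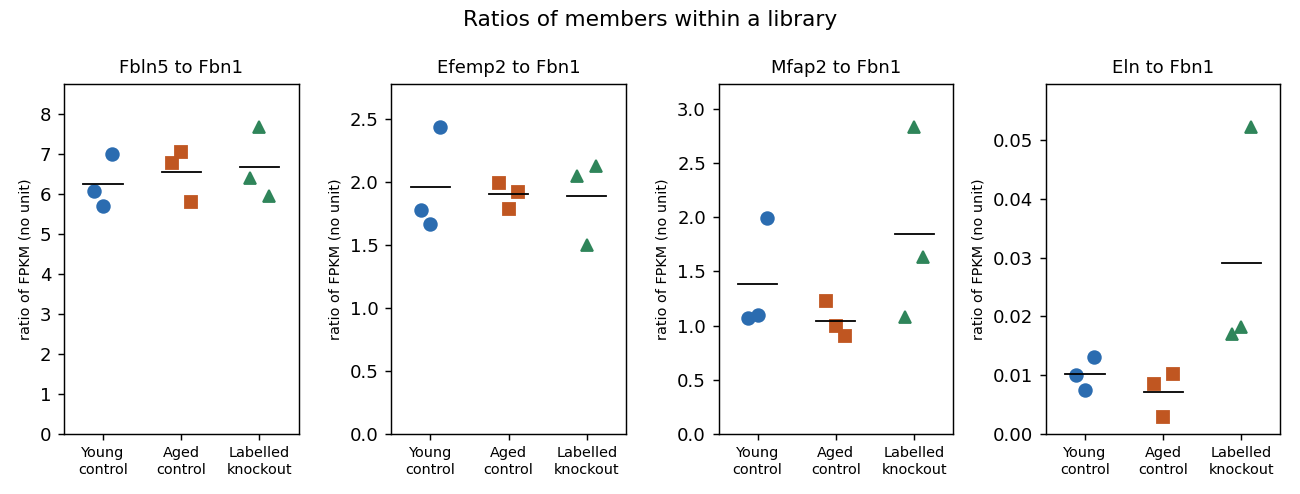
Ratios of FPKM within each library for 4 pairs of members, with 3 points per group and a black line at the group mean; axes start at 0. Fbln5 to Fbn1 stays between 5.69 and 7.67, while Eln to Fbn1 is 0.0171 or more in labelled-knockout libraries and 0.0131 or less in controls.

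The plot of the 4 scalings gives each tested member's fold change as deposited, after median-ratio rescaling, without immunoglobulin genes and relative to the stromal markers. Fbln2 and Mfap4 lay at 1.17 and 1.13 or more in all 4 for labelled-knockout libraries against aged controls. Fbn1, Fbln5 and Efemp2 came to 0.02, 0.06 and 0.01 there relative to the stromal markers.

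**Figure D5:**
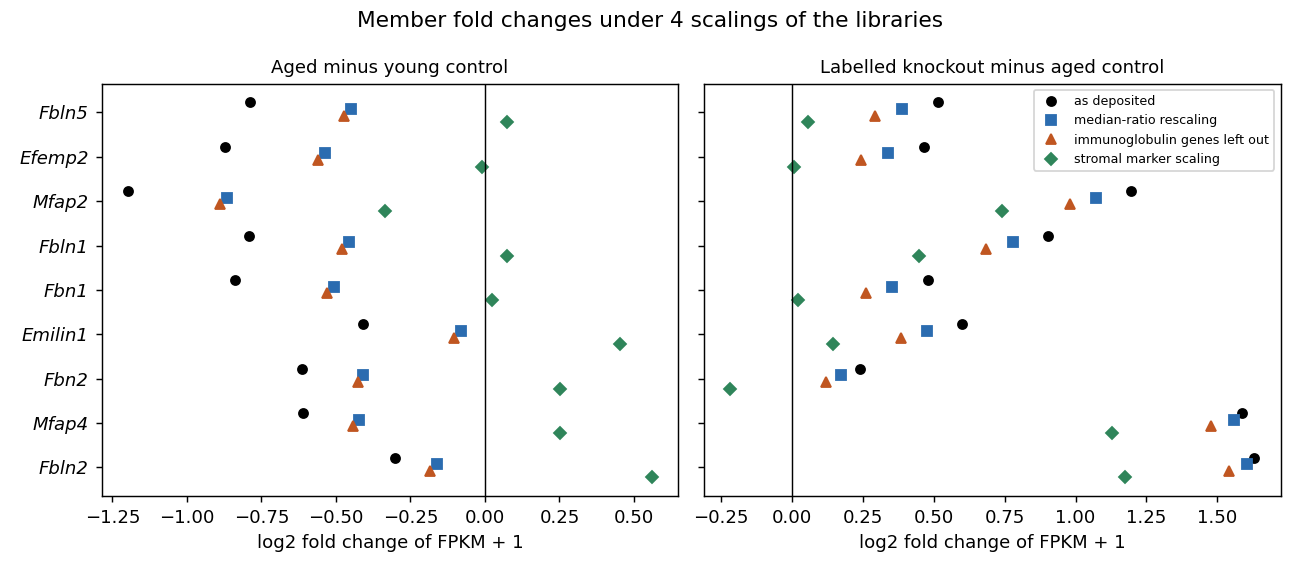
Log2 fold changes on log2(FPKM + 1) of the 9 tested members under 4 scalings of the libraries, in 2 comparisons. Relative to stromal markers 7 of 9 members turn positive with age, and Mfap2 stays negative at −0.34. The shift follows the addition of 1 FPKM. Turned signs of Fbn2 and Mfap4, near 1 FPKM, are thus no evidence of a relative rise.

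Genes with the most similar pattern over the 9 libraries were found by the root mean square difference of centred log2 values among tested genes with an established symbol. Fbn1 lay nearest to Plscr3 (difference 0.10) and Plekhg2 (0.10), against a spread of 0.49 for Fbn1 itself. Plscr3 (0.12) was also the nearest to Fbln5, with Htra1, a secreted serine protease, and Ggt5 next. The nearest to Efemp2 were Slc9a3r2, Tob2 and Rspo2, a Wnt agonist. Those of Mfap2 were Cnpy4, Gng11 and Cavin3, at 0.14 to 0.16. Fbln1 had Kirrel, Hoxa11 and Tlcd2, Fbn2 had Mtrf1, Myo6 and Tshz2, and Emilin1 had Ppp2r5b, Flvcr2 and Ece1. Mfap4 lay nearest to Meox2 (0.18), a homeobox gene at 1.85, 12.80 and 4.37 FPKM in labelled-knockout libraries, then Sema7a and Farp2. Fbln2 had the most distant neighbours, Tppp3 (0.32), Ssc5d (0.34) and Hspg2 (0.34), which encodes perlecan. The libraries share their group, depth and scaling, so likeness of pattern is a description only.

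Partners of elastic fibre assembly formed a list of 32 genes, 25 of them tested. With age 1 rose and none fell (median −0.42), where 308 rose and 176 fell of all 11988 genes tested. Against aged controls none of the labelled-knockout values passed (median 0.42), and against young controls none did (median 0.09). The gene that rose was Emilin2, at 2.72, 6.50 and 1.59 FPKM in young and 111.86, 189.05 and 16.00 FPKM in aged controls (4.10, SE 0.88, limma adjusted p = 0.0390), which leukocytes also express. It passed in 4 of 9 fits without 1 library. Without labelled-knockout library 2 the counts were 1 rise and 3 falls with age, and 5 rises and 2 falls against aged controls. Over all genes in that fit, 5.17% rose and 17.9% fell with age, and 11.5% rose and 4.48% fell against aged controls.

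The crosslinking enzymes Lox and Loxl1 were abundant, at 135 ± 24.3 and 101 ± 8.82 FPKM in young and 82.1 ± 20.9 and 47.6 ± 14.1 FPKM in aged controls (SD, n = 3). Loxl1, which is linked to elastin maintenance, lay at −1.10 (SE 0.27, limma adjusted p = 0.0541) and Lox at −0.72 (SE 0.32, limma adjusted p = 0.234). In labelled-knockout libraries they averaged 94.9 ± 32.4 and 76.2 ± 15.6 FPKM. Of the latent TGF-beta binding proteins, which dock on fibrillin, none passed with age (limma adjusted p from 0.149 to 0.392). Ltbp1, Ltbp2 and Ltbp3 averaged 37.3, 61.0 and 30.1 FPKM in young and 24.2, 36.7 and 19.3 FPKM in aged controls, whereas Ltbp4 was at 1.26 and 2.19 FPKM. Ltbp4 was at 3.07, 4.18 and 4.43 FPKM in labelled-knockout libraries, above all 6 controls (1.12 against young controls, SE 0.22, limma adjusted p = 0.278). Efemp1, the fibulin-3 gene, was lower in labelled-knockout libraries than in aged controls, at 120 ± 42.7 against 188 ± 39.6 FPKM (−0.68, SE 0.29, limma adjusted p = 0.227). Mfap5, the MAGP2 gene, was at 3.10, 13.30 and 12.76 FPKM in labelled-knockout libraries, with the same high libraries 2 and 3 as Mfap4 and Fbln2. Fn1, fibronectin, on which fibrillin assembles, was at 72.90, 69.95 and 200.77 FPKM there and at 38.1 ± 15.8 FPKM in aged controls (1.45, SE 0.50, limma adjusted p = 0.151).

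The members lie apart in the genome. On GRCm38, with GENCODE M21 models, Mfap2 (ENSMUSG00000060572.17) is at chr4:141010418-141015984, Fbn1 (ENSMUSG00000027204.13) at chr2:125300594-125507993, Fbln5 (ENSMUSG00000021186.9) at chr12:101746565-101819055 and Efemp2 (ENSMUSG00000024909.15) at chr19:5473954-5482517. Fbln1 (ENSMUSG00000006369.14) is at chr15:85205949-85286535, Fbln2 (ENSMUSG00000064080.12) at chr6:91212455-91272540 and Mfap4 (ENSMUSG00000042436.12) at chr11:61485431-61488900. Eln (ENSMUSG00000029675.12), at chr5:134702593-134747323, and Emilin1 (ENSMUSG00000029163.9), at chr5:30913402-30921277, share a chromosome without being neighbours. Exons of 5 members overlap those of a gene on the opposite strand. The overlap is 2442 of the 12128 exonic bases of Fbn1 (with Gm9913), 267 bases of Eln (Gm30003), 129 of Fbn2 (Gm26507), 173 of Efemp2 (Mus81) and 89 of Mfap4 (Mapk7). The library kit does not mark strand, so reads in these stretches cannot be told apart, which touches the ratios to Fbn1 most. Mapk7 was at 3.89 to 7.88 FPKM over the 9 libraries, where Mfap4 ranged from 0.64 to 12.06.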

How the data were processed

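RNA libraries were made with SMART-Seq v4 from 2 ng of total RNA, per the labels' protocols. The authors deposited FPKM rounded to 2 decimals, per the file headers. STAR, edgeR and FastQC 0.11.5, with no roles, and the build GRCm38 (mm10) stand in the submitters' processing notes. Which annotation and counter were used is not given in the sources used here. Since FPKM is relative to a library's total, abundant immunoglobulin RNA lowers all other values.

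Columns were matched to samples by title and groups taken from the genotype label. Genes at 1 FPKM or more in at least 3 libraries were tested with limma 3.58.1 in R 4.3.3, with group means for all 9 libraries and an intensity trend, on log2(FPKM + 1) (6 residual degrees of freedom). Per-member values, ratios and figures used scipy 1.17.1, pandas 2.3.3, matplotlib 3.10.9 and numpy 2.4.6 under Python 3.11.15. The procedure was tested on simulated data. Depth was estimated as the value at which low FPKM times the length of genes with 1 transcript gave whole reads. At the depth found, 86.8% to 98.7% of values were whole within 0.1. That share cannot tell a step from a multiple of it. The floor of 3 reads for a gene of 2 kb was 0.0548 to 0.0838 FPKM, and floors cover counting error only. A count test was not run.

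Members and lists were chosen with earlier results of these data known. The text names all members, Thbs1, a fixed set of partners, the 4 smallest p-values of each pathway list past the test, and the 3 genes most like each tested member, 1 of which is not reported here. Alternatives were another pseudocount (0.1), filters (none, or 5 FPKM) and scalings, no trend, array weights, fewer groups, a replicate block, and leaving out single libraries. Stromal marker scaling, median-ratio rescaling without labelled-knockout library 2, and ratios without single libraries were added after seeing the data.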

Additional observations from a re-analysis of the deposited data

How the results depend on the processing

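Over 21 alternatives Mfap2 kept its direction with age (−1.39 to −0.34, passing in 11) and against aged controls (0.74 to 1.39, passing in 9). Deviations of same-numbered libraries from their group means showed no common sign (correlations −0.29 to 0.30). With 3 libraries a group this cannot tell whether equal numbers mark a pairing. With the replicate block no member passed (0 and 0, Mfap2 at adjusted p = 0.0741 and 0.0793), and 120, 64 and 2 genes did. In order of the comparisons (aged against young controls, labelled-knockout libraries against aged and against young controls), 484, 417 and 3 genes and 1, 1 and 0 members passed. With no filter 138 and 92 genes and 0 and 0 members passed, and with a minimum of 5 FPKM 199 genes in the second. Array weights, whose estimation did not converge, gave 7419, 6347 and 1414 genes and 8, 9 and 1 members. Only the compared libraries gave 2155 and 14 genes and 4 and 0 members. Stromal marker scaling gave 1024 genes in the first and 0 and 0 members. Median-ratio rescaling gave 0 members in the first, where 2.88% of all genes rose and 0.551% fell. Quantile normalization gave 2 members in the second, where 2.14% of all genes rose and 2.53% fell. Median-ratio rescaling without labelled-knockout library 2 gave 1223, 1317 and 48 genes. Leaving out 1 library gave 4 to 2729, 13 to 1895 and 2 to 37 genes and 0 to 4, 0 to 2 and 0 to 0 members. The most genes passed without labelled-knockout library 2 in each comparison, the most members without it in the first and without it or labelled-knockout library 1 in the second. The split of calls with age was 308 higher and 176 lower, 345 and 66 with median-ratio rescaling and 1011 and 13 with stromal marker scaling. Signs turned under stromal marker scaling with age for Fbn1 (0.025), Fbn2 (0.25), Mfap4 (0.25), Fbln5 (0.074), Fbln1 (0.073), Fbln2 (0.56) and Emilin1 (0.45). Against aged controls this was so for Fbn2 (−0.22), and against young controls for Fbn1 (0.047), Fbn2 (0.033), Fbln5 (0.13) and Mfap2 (0.40). The turns of Fbn2 and Mfap4 carry the limit for members near 1 FPKM, as the shift follows the pseudocount. Against young controls Mfap2, at 0.00, turned with median-ratio rescaling (0.21), immunoglobulin genes left out (0.091) and array weights (0.083), and Fbln1 with array weights (−0.28) and with median-ratio rescaling without labelled-knockout library 2 (−0.0022), as did Efemp2 (0.083). Without 1 library these values ran from −0.081 to 0.10 for Mfap2, −0.70 to 0.028 for Efemp2, −0.057 to 0.33 for Fbln1 and −0.21 to 0.62 for Emilin1. The causes were not tested. Depth limits Eln and Mfap4 most, with as few as 29 and 32 estimated reads in a library.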

Other observations

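Proteases that can cut elastic fibres, and their inhibitors, formed a list of 18 genes with 15 tested. With age 3 rose and none fell (median −0.64, against −0.28 for all genes), where 308 rose and 176 fell of all 11988 genes tested. Slpi, an inhibitor of neutrophil elastase, was at 3.55, 2.39 and 10.00 FPKM in young and 7377.30, 1003.95 and 2200.95 FPKM in aged controls (8.84, SE 1.56, limma adjusted p = 0.0216). Ctss, cathepsin S, was at 1.44 ± 1.46 against 124 ± 80.7 FPKM (5.49, SE 1.13, limma adjusted p = 0.0339) and Ctsg, cathepsin G, at 0.180 ± 0.270 against 17.3 ± 12.8 FPKM (3.51, SE 0.73, limma adjusted p = 0.0350; SD, n = 3). They passed in 5, 4 and 4 of 9 fits without 1 library. Ctsg reached 1 FPKM in every aged control and in no young control, and so entered the test largely through the group where it was high. Leukocytes make all 3, and pan-leukocyte markers were higher in aged than in young controls. Within the aged controls those markers summed to 1682, 1792 and 595 FPKM. Ctsg, at 24.81, 24.55 and 2.51 FPKM, was likewise lowest in library 3. Slpi and Ctss (163.01, 31.49 and 178.14 FPKM) were instead lowest in library 2, where the pan-leukocyte sum was highest. B lineage and plasma cell markers, summing to 182829, 38422 and 271587 FPKM in aged controls, were also lowest in library 2. The part of leukocytes was not tested. Mmp12, macrophage elastase, was at 0 in 8 libraries and at 0.01 FPKM in aged control library 2.

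Against aged controls, Ctsg fell in the labelled-knockout libraries (−3.28, SE 0.73, limma adjusted p = 0.0455) and Serpina1a, an elastase inhibitor with near-identical copies, so that its reads are uncertain, rose from 0.293 ± 0.261 to 10.45 ± 3.04 FPKM (3.13, SE 0.50, limma adjusted p = 0.0209; SD, n = 3). Ctsg reached 1 FPKM in every aged control and otherwise only in labelled-knockout library 2 (1.54 FPKM). Serpina1a reached it in every labelled-knockout library and otherwise only in young control libraries 2 and 3 (1.38 and 4.15 FPKM). Each entered the test largely through the group where it was high, so these p-values are no independent support. Ctsg and Serpina1a passed in 2 and 6 of 9 fits without 1 library. Of 14 tested receptors for fibrillins, fibulins and elastin, Itga9 was the one called, at 1.76, 2.34 and 2.42 FPKM in aged controls and 9.66, 4.72 and 6.61 FPKM in labelled-knockout libraries (1.29, SE 0.28, limma adjusted p = 0.0408), and it passed in 1 of 9 such fits.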
